A study of Homo sapiens with 6 samples.

Results

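The genes described here were VEGFA, VEGFB, VEGFC and PGF (ligands), FLT1 and KDR (receptor tyrosine kinases), NRP1 and NRP2 (neuropilin co-receptors) and ANGPTL4 (an angiopoietin-like secreted protein), which are 9 of the 35993 genes in the deposited gene table. They were chosen by symbol, with the response of these cells to treatment already known, so their own differences between the groups are given as a description, with no p-value and nothing concluded from the calls counted further on. The RNA-seq libraries were made from MIA PaCa-2, an established human pancreatic carcinoma cell line. In 3 libraries (rhCYGB) the cells had been given 4 µM rhCYGB, a His-tagged recombinant human cytoglobin produced in bacteria, for 48 h. The 3 further libraries (Control) came from untreated cells. Both groups are given as cultured in medium with 1% FBS and taken at 48 h. The study describes the set of experiments that includes these libraries as independently repeated, but the labels do not say whether the 3 libraries of a group came from separate cultures, so the errors and p-values below measure the spread between these libraries, which may be technical.

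VEGF ligands are secreted dimers that drive the growth and permeability of blood and lymphatic vessels by binding receptor tyrosine kinases on endothelial cells. VEGFA binds both FLT1 (VEGFR1) and KDR (VEGFR2), VEGFB and PGF bind FLT1, and VEGFC signals mainly through FLT4 (VEGFR3) and also binds KDR. Neuropilins hold VEGF at the cell surface beside these receptors and are also receptors for class 3 semaphorins, and in tumours carcinoma cells are a common source of VEGFA.

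VEGFA transcripts are spliced into coding forms that share the receptor-binding part and differ near the carboxyl terminus. There exons 6 and 7 encode stretches that bind heparan sulfate, and exon 7 adds to neuropilin binding. The first 3 sequences printed next show the part in which the forms compared below differ, from exon 5 to the stop codon, and the fourth shows the exon 6 that is particular to VEGF206, read 5′ to 3′ on the plus strand of GRCh38 from GENCODE. In the first 3, capitals mark exon 7, and lower-case sequence between the first 30 bases (exon 5) and the capitals is exon 6. In the fourth, capitals mark the bases that VEGF189 lacks.
VEGF121: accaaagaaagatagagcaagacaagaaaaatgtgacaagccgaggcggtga
VEGF165: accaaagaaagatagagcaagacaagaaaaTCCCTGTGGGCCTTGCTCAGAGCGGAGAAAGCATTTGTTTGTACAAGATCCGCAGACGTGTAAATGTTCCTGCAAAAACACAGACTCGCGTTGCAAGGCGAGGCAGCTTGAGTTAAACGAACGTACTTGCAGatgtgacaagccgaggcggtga
VEGF189: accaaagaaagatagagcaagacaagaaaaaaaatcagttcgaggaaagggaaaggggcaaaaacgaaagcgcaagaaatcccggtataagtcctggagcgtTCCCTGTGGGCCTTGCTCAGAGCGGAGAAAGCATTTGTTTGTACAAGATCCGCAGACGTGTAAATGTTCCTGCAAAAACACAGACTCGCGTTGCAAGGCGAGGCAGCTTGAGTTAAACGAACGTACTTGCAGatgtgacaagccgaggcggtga
VEGF206 exon 6: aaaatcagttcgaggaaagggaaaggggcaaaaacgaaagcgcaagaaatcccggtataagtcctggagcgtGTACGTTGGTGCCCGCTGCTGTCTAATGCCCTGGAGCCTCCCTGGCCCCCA
Exon 5 lies at chr6:43778889-43778918, exon 6 at chr6:43780732-43780803 (72 bases), exon 7 at chr6:43781956-43782087 (132 bases) and the last coding exon at chr6:43784541-43784562 (22 bases). VEGF206 uses a longer exon 6 of 123 bases that ends at chr6:43780854.

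Total counts per library lay between 34838399 and 42271299, and 14728 genes passed the filter on low counts. The groups stood well apart, with correlations of log2 values of at least 0.987 within a group and at most 0.929 between groups. The carcinoma cell markers KRT8, KRT18, KRT19 and VIM were present in every library, while EPCAM and CDH2 had no counts. CDH1 had 2 counts in Control 1 and none elsewhere. Of 6 tested carcinoma markers, 1 (ZEB1, log2 fold change 1.18) was higher by the call rule given below and none was lower. By the adjusted p alone VIM (0.55) was also higher, and KRT8 (−0.81) and KRT19 (−0.61) were lower. Of 12 endothelial markers, PECAM1, TEK, TIE1 and ERG were at 0 in all libraries. CDH5, VE-cadherin, was nevertheless detected, with 4531, 5428 and 4438 counts in Control and 390, 452 and 465 in rhCYGB. ROBO4 went the other way, with 1155, 1296 and 983 counts in Control and 3965, 3615 and 4117 in rhCYGB. The summed endothelial list ran from 219 to 237 CPM in Control and from 159 to 163 CPM in rhCYGB. CPM are counts scaled to a common, normalized library size. The largest part of the list sum was CDH5 in Control (117 ± 7.25 CPM) and ROBO4 in rhCYGB (109 ± 2.49 CPM). Of 6 tested markers, 2 were higher by the call rule given below (ROBO4 and ESAM). The 4 lower were CDH5, MMRN2, EMCN and EGFL7, the last named after its value was seen. Of 10 stromal markers LUM and DCN were at 0, with a list sum of 962 to 1023 CPM in Control and 317 to 344 CPM in rhCYGB. Most of that sum was RGS5 (834 ± 26.9 and 317 ± 14.2 CPM). Of 4 tested, 3 were lower (RGS5, COL1A2 and COL3A1), and ACTA2 was not called. COL3A1 had 146, 190 and 155 counts in Control and 2, 2 and 9 in rhCYGB. Of 8 leukocyte markers PTPRC, CD3E, CSF1R and MS4A1 were at 0, with a sum of 38.6 to 42.2 CPM in Control and 71.1 to 73.1 CPM in rhCYGB, most of it CD68 (36.0 ± 1.87 and 71.4 ± 1.04 CPM), which was higher by the adjusted p but not 2-fold, and CD14, the other marker tested, was lower. CD14 had 152, 182 and 170 counts in Control and 6, 9 and 9 in rhCYGB. COL3A1 and CD14 passed the filter only through their level in Control, so their calls carry no weight. Whether these marker differences bear on the genes described here was not tested. In bulk libraries a difference in the number of cells of one kind and a difference in RNA per cell cannot be told apart.

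VEGFA stood out among the ligands. The 3 Control libraries held 2244, 2753 and 2141 VEGFA counts, and the rhCYGB libraries held 29064, 25633 and 29756. The groups did not overlap, and the lowest treated library lay far above the highest untreated one. On the normalized scale VEGFA went from 58.1 ± 4.85 CPM in Control to 787 ± 18.7 CPM in rhCYGB (mean ± SD, n = 3 each), 13.6-fold higher, with a fitted log2 fold change of 3.76 (SE 0.054). It was ranked 76 of the 14728 genes tested when ordered from the most positive log2 fold change. By FPKM, a level scaled to transcript length and to the fragments mapped, VEGFA was ranked 3758 of all genes in Control and 284 in rhCYGB.

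VEGFB, a ligand of FLT1 with a limited part in vessel growth, was also higher after treatment. It had 693, 898 and 684 counts in Control and 1483, 1337 and 1500 in rhCYGB. The groups did not overlap, and the mean was 18.5 ± 1.64 CPM in Control and 40.3 ± 0.391 CPM in rhCYGB, a log2 fold change of 1.12 (SE 0.065). VEGFC, the main lymphangiogenic ligand, went the other way, with 1925, 2254 and 2162 counts in Control and 1283, 1050 and 1315 in rhCYGB. All treated libraries lay below all untreated ones, at 33.9 ± 2.12 against 51.7 ± 1.36 CPM, or 34.3% lower, a log2 fold change of −0.61 (SE 0.055). PGF, placental growth factor, was rare in both groups, at 23, 29 and 33 counts in Control and 47, 46 and 59 in rhCYGB. Its groups did not overlap either, at 0.691 ± 0.103 and 1.42 ± 0.170 CPM, with a log2 fold change of 1.03 (SE 0.27). The remaining family ligand, VEGFD, had no counts in any library.

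The balance between the ligands differed between the groups. In FPKM summed over VEGFA, VEGFB, VEGFC and PGF, the ligands came to 46.8 ± 1.21 in Control and 219 ± 9.78 in rhCYGB (mean ± SD, n = 3). VEGFC was the most abundant ligand in Control, with 45.5 ± 2.68% of that sum, ahead of VEGFA with 33.3 ± 1.73% and VEGFB with 20.5 ± 1.18%. In rhCYGB VEGFA made up 85.5 ± 0.107%, VEGFB 8.49 ± 0.146% and VEGFC 5.68 ± 0.244%. PGF stayed below 1% of the sum in every library, at 0.709 ± 0.137% in Control and 0.279 ± 0.0307% in rhCYGB, although its own level was higher in rhCYGB. The VEGFA share in single libraries lay between 31.3 and 34.4% in Control and between 85.5 and 85.7% in rhCYGB.

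**Figure D1:**
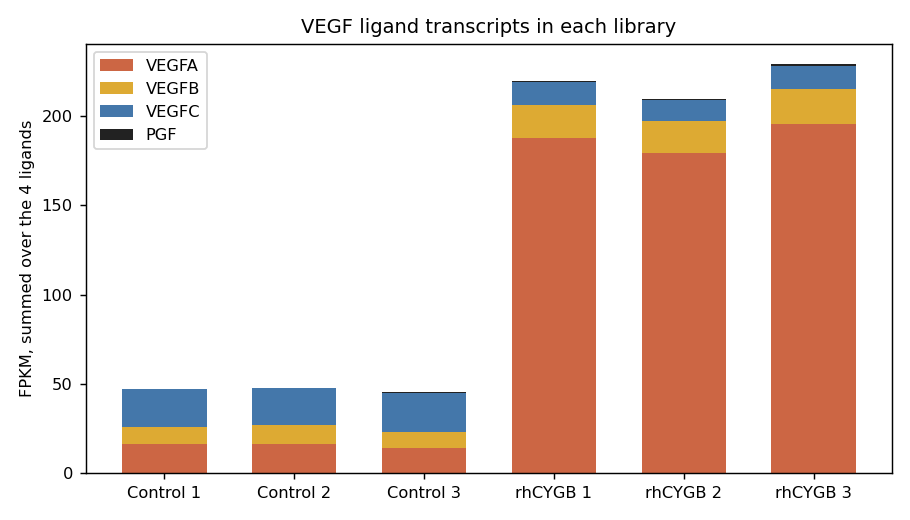
Stacked FPKM of VEGFA, VEGFB, VEGFC and PGF in each of the 6 libraries (y axis from 0). The 3 rhCYGB columns are taller and are mostly VEGFA (85.5% on average), whereas VEGFC holds the largest part of the Control columns (45.5%).

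The transcript table lists 20 RefSeq models of VEGFA, which encode 9 full coding forms and 1 amino-terminally shortened protein. Most models come in pairs that encode the same form from a CUG or an AUG start and differ by 2 bases in length, so the models of a form were summed before shares of VEGFA FPKM were taken. The shares are estimates by the assembly software, since most reads of VEGFA fall in sequence that the forms share. VEGF121, the form without exons 6 and 7 that diffuses freely, made up 51.3, 40.7 and 43.2% in Control and 40.5, 41.9 and 37.6% in rhCYGB. VEGF165, the form with exon 7 that is partly retained on heparan sulfate, made up 43.3, 48.4 and 42.3% in Control and 45.9, 44.5 and 47.6% in rhCYGB. For both of these major forms the groups overlapped, and in mean level both were many times higher after treatment, with VEGF121 going from 7.03 ± 1.10 to 75.0 ± 1.25 FPKM.

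The forms with exon 6, which are held on the cell surface and matrix, were minor. VEGF189 made up 1.40, 4.35 and 6.63% in Control and 6.46, 5.97 and 7.34% in rhCYGB, and the groups overlapped. VEGF206 rested on 3, 4 and 4 transcript counts in Control and 337, 242 and 395 in rhCYGB, or 0.129 ± 0.0199 and 1.09 ± 0.183% of VEGFA FPKM. The 4 forms with exon 6 together made up 1.51, 5.99 and 6.78% in Control and 9.08, 8.75 and 10.2% in rhCYGB. These sums did not overlap between the groups, but Control 1 lay well below the other Control libraries, so the size of the difference (4.76 ± 2.85 against 9.35 ± 0.769%) depends on it.

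VEGF165b, which ends in a different last exon, stood at 2.65 ± 1.64% in Control and 2.54 ± 0.650% in rhCYGB, with overlapping groups. The other forms (VEGF111, VEGF145, VEGF148 and VEGF183) each stayed below 2% in every library. The amino-terminally shortened model was the one entry besides VEGF206 whose shares did not overlap, with 25, 35 and 29 counts in Control and 71, 49 and 56 in rhCYGB. Its share was 1.66 ± 0.150% in Control and 0.280 ± 0.0435% in rhCYGB, so its counts were higher after treatment but had grown less than those of VEGFA as a whole. For VEGFB, the form of 186 residues, which is the more soluble one, made up 86.8 ± 1.87% of FPKM in Control and 92.1 ± 2.00% in rhCYGB. The heparin-binding form of 167 residues made up the rest, 13.2 ± 1.87 and 7.85 ± 2.00%, and the groups did not overlap.

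**Figure D2:**
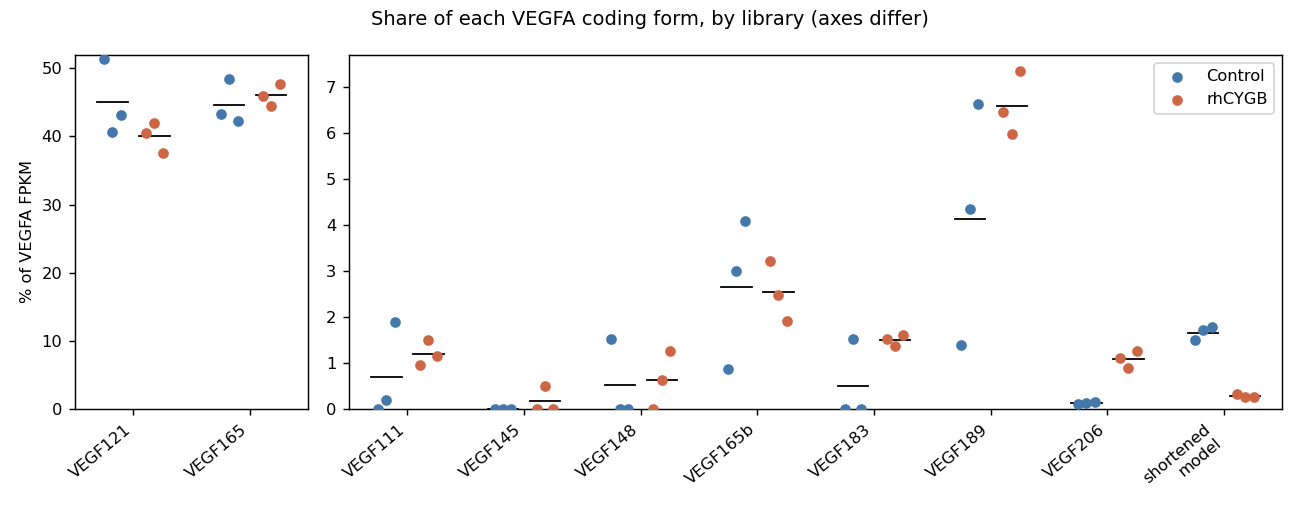
Share of VEGFA FPKM (%, y axes from 0 and different in the left and right panels) of each coding form in each library, with points for single libraries and lines for group means. VEGF121 and VEGF165 each hold 37.6 to 51.3% in all libraries and overlap between groups, while VEGF206 and the shortened model are the entries without overlap.

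The receptors were at the edge of detection. FLT1, which binds VEGFA with high affinity and signals weakly, had 11, 7 and 12 counts in Control and 46, 15 and 28 in rhCYGB. The groups did not overlap but rhCYGB 2 lay close to the Control libraries, and the means were 0.249 ± 0.0800 and 0.816 ± 0.397 CPM, a log2 fold change of 1.73 (SE 0.45). FLT1 passed the filter on low counts only through its level in rhCYGB. Its reads were mostly divided between the full-length model (3, 7 and 9 counts in Control, 24, 0 and 6 in rhCYGB) and a soluble model without the kinase part (8, 0 and 3 counts in Control, 22, 15 and 18 in rhCYGB), too few to set one against the other. KDR, the main signalling receptor for VEGFA on endothelial cells, had 0 counts in all 6 libraries, which allows up to 0.0669 to 0.0902 CPM per library (3 counts, counting error only). FLT4, the VEGFC receptor, had 3 counts in one Control library and none in the others.

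A 250-base stretch upstream of the start was given for 7 of the 9 genes by RefSeq (GRCh38.p14), and FLT1 is shown because it alone held the cyclic AMP response element TGACGTCA, to which CREB and ATF family factors bind. The FLT1 stretch, chr13:28495129-28495378 on the minus strand, has this motif in capitals, with its first base 81 bases before the start.
FLT1: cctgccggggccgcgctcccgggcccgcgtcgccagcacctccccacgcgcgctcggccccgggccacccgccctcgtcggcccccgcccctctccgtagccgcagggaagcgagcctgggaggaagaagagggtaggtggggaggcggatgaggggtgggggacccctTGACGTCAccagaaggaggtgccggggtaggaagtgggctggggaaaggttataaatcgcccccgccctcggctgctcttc
TGACGTCA is its own reverse complement and was present in 1.65% of 35116 such stretches, searched on both strands. The composite C/EBP-ATF letters TGATGNAA, present in 3.14% of all stretches, were in none of the 7 genes. The hypoxia response core ACGTG, present in 18.5%, was found in ANGPTL4 alone, and the GC box GGGCGG, present in 42.6%, was found in all 7. VEGFA and NRP1 were not among the 7. A match is a description of the letters and not of a factor bound there.

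Both neuropilins were lower after treatment. NRP1, a co-receptor for VEGFA and for SEMA3A, had 88, 185 and 153 counts in Control and 22, 12 and 32 in rhCYGB. The groups did not overlap, although Control 1 was lower than the other Control libraries, and the means were 3.41 ± 0.930 and 0.607 ± 0.254 CPM, 82.2% lower, with a log2 fold change of −2.48 (SE 0.30). The soluble NRP1 model, which lacks the membrane anchor, had 4, 79 and 0 counts in Control and none in rhCYGB, and since this model is short it raised the NRP1 FPKM of Control 2 to 1.03 against 0.386 and 0.594 in the others. NRP2, the co-receptor for VEGFC and SEMA3F, had 31, 34 and 18 counts in Control and 3, 6 and 6 in rhCYGB. No libraries overlapped, at 0.677 ± 0.208 and 0.141 ± 0.0532 CPM, a log2 fold change of −2.24 (SE 0.47), and NRP2 passed the filter only through its level in Control. Its 15 counts in rhCYGB do not allow a split by transcript.

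ANGPTL4, a secreted inhibitor of lipoprotein lipase that is induced by hypoxia and by PPAR receptors, was the member with the smallest difference. It had 528, 621 and 514 counts in Control and 419, 448 and 451 in rhCYGB. The normalized values overlapped, at 13.5 ± 0.830 and 12.3 ± 1.10 CPM, with a log2 fold change of −0.14 (SE 0.089). Scaled by total counts the difference was −0.30.

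**Figure D3:**
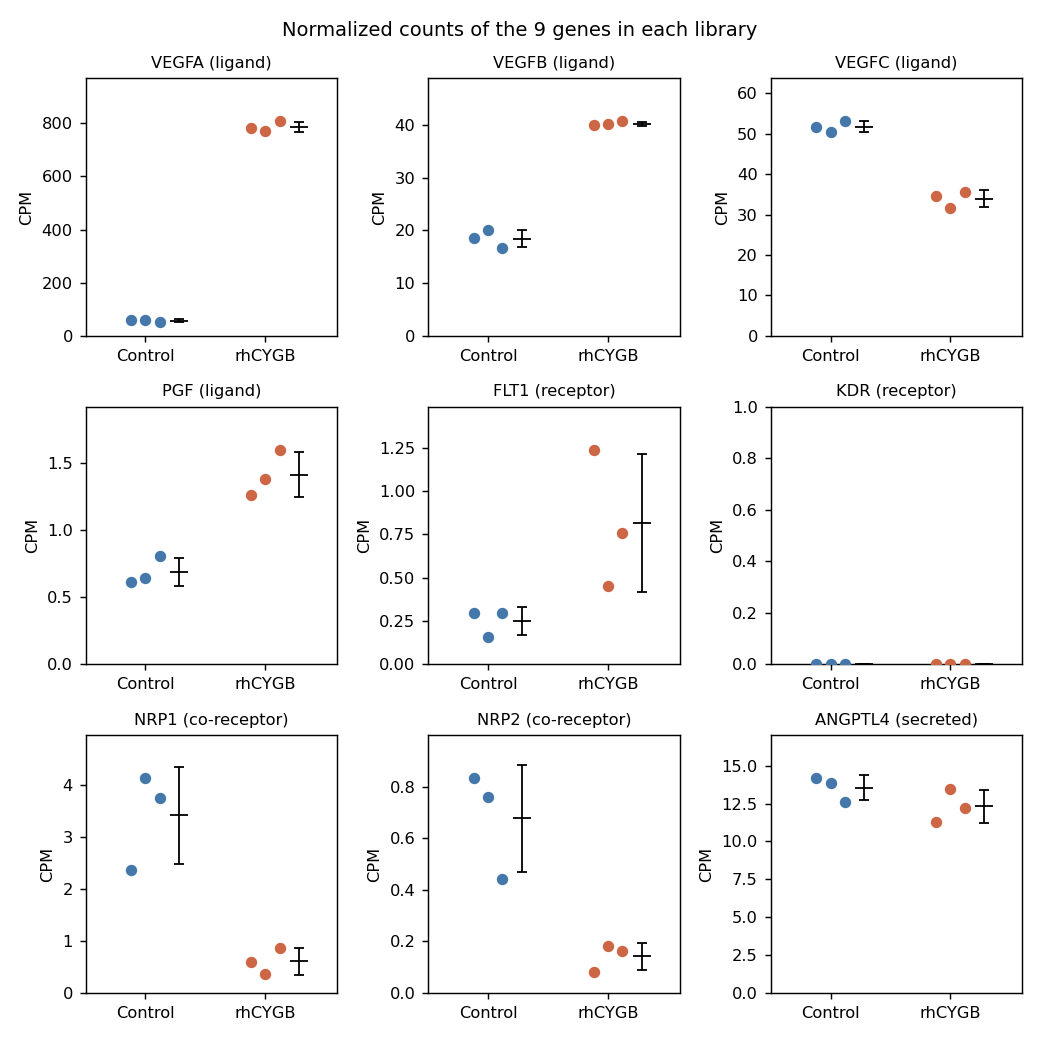
CPM of each of the 9 genes in the 3 Control and 3 rhCYGB libraries (points) with group mean and SD (bars), on linear axes from 0 that differ between panels. VEGFA, VEGFB, PGF and FLT1 lie higher and VEGFC, NRP1 and NRP2 lower in rhCYGB without overlap, ANGPTL4 overlaps, and KDR is at 0.

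Ordered by mean FPKM, the Control libraries ran VEGFC (21.3 ± 0.693), VEGFA (15.6 ± 1.19), VEGFB (9.59 ± 0.790), ANGPTL4 (6.78 ± 0.373), NRP1 (0.669 ± 0.327), PGF (0.331 ± 0.0554), NRP2 (0.0916 ± 0.0270) and FLT1 (0.0316 ± 0.0113). Only NRP1 and PGF overlapped among neighbours in that order. In rhCYGB the order was VEGFA (188 ± 8.18), VEGFB (18.6 ± 0.516), VEGFC (12.5 ± 1.05), ANGPTL4 (5.49 ± 0.404), PGF (0.614 ± 0.0855), FLT1 (0.103 ± 0.0464), NRP1 (0.0837 ± 0.0384) and NRP2 (0.0264 ± 0.0237). FLT1, NRP1 and NRP2 overlapped with their neighbours there. NRP1 thus went from the most abundant of the receptors and co-receptors in Control to a level that overlapped those of FLT1 and NRP2, and in both groups the receptors and co-receptors lay far below VEGFA.

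Under the call rule of an adjusted p under 0.05 in edgeR's quasi-likelihood test with a fold change of 2 or more, VEGFA, VEGFB and PGF were called higher and NRP1 lower. FLT1 (higher) and NRP2 (lower) also passed, but each entered the fit only through the group in which it was high, so their calls carry no weight, and neither was tested where at least 10 counts were required in every library. Counting them, 4 genes were called higher and 2 lower of the 8 tested. Over all genes tested 27.1% were called, 12.4% higher and 14.7% lower in rhCYGB, and nothing is read from the members' count because they were chosen with this contrast known. With the adjusted p alone VEGFC was also called lower, where 77.6% of all genes were called. The libraries of the groups did not overlap for 7 members and for 79.5% of all genes tested. Scaled by total counts, which moved the median log2 fold change of all genes by −0.16, VEGFB (0.96) and PGF (0.87) were no longer 2-fold higher, and 33.9% of all calls were higher in rhCYGB in place of 45.8%. PGF also dropped below 2-fold without Control 1, without Control 2 or without rhCYGB 3.

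**Figure D4:**
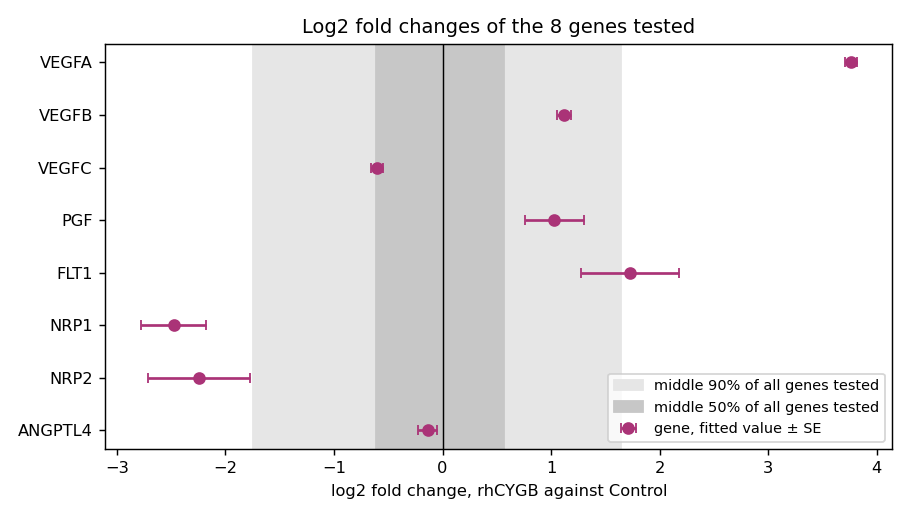
Fitted log2 fold change (rhCYGB against Control, x axis) with SE for the 8 genes tested, over shaded bands for the middle 50% and 90% of all 14728 genes. VEGFA (3.76), NRP1 (−2.48), NRP2 (−2.24) and FLT1 (1.73) lie outside the 90% band of −1.75 to 1.65, and ANGPTL4 (−0.14) lies near its centre. FLT1 and NRP2 entered the fit only through the group in which each was high, so their place outside the band carries no weight.

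Genes around the VEGF system were described from 12 lists of 251 distinct genes outside the members, of which 195 were tested. By the same call rule 49 rose and 27 fell, or 39.0% of those tested beside 27.1% of all genes, and the median log2 fold change was 0.22 beside −0.0046. The lists were written with earlier results of these data known, so nothing is read from that share. The ATF4 targets alone gave 22 of the 49 that rose. All adjusted p-values that follow are from edgeR's quasi-likelihood test, adjusted over all genes tested by Benjamini-Hochberg.

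Among 24 tested regulators of VEGFA transcription and mRNA decay, 7 rose and 1 fell, with a median log2 fold change of 0.48. XBP1, the transcription factor of the unfolded protein response, rose by 2.86 (SE 0.052, adjusted p = 9.8e-16), and ATF4, the main factor of the integrated stress response, rose by 1.95 (SE 0.052, adjusted p = 5.4e-14). ZFP36L1, which binds AU-rich elements in mRNAs and promotes their decay, rose by 1.91 (SE 0.040, adjusted p = 4.3e-15). The gene that fell, EGLN3, rested on 13, 11 and 16 counts in Control and 7, 0 and 0 in rhCYGB. It passed the filter only through its level in Control. Without Control 1, without Control 3, without rhCYGB 2 or without rhCYGB 3 it was no longer called. HIF1A, the oxygen-regulated activator of VEGFA, had a log2 fold change of 0.14. Both were named after their values were seen.

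Of 20 tested hypoxia-inducible genes 6 rose and 1 fell, with a median of 0.49, while 3 fell when scaled by total counts and 2 on both FPKM scales. NDRG1 rose by 3.00, the glucose transporter SLC2A1 by 2.56 and the pyruvate dehydrogenase kinase PDK1 by 1.63, and the carbonic anhydrase CA12 fell by 1.30 on the log2 scale. Their adjusted p-values in edgeR's test were 5.8e-16, 9.9e-16, 1.4e-12 and 0.0015. CA9 and BNIP3 had no counts. The glycolytic genes of the list, chosen after their values were seen, differed in direction, with log2 fold changes of −0.95 for LDHA, −0.92 for PGK1 and −0.82 for ENO1, of 0.56 (SE 0.26) for ALDOA, and of 0.91 for the regulatory enzyme PFKFB3 and −0.05 for PFKFB4. ALDOA had 42929, 17374 and 20193 counts in Control, so its value depends on Control 1. Of 24 tested ATF4 targets 22 rose and none fell by the call rule, 24 had an adjusted p under 0.05 and all were positive, and the median log2 fold change was 2.63. NUPR1 (6.63), ATF3 (5.57) and DDIT3 (4.09), stress-induced transcriptional regulators, were the largest, each with an adjusted p of at most 6.2e-15 in edgeR's test. The tested targets ran widely, from 0.15 for PSPH, named after its value was seen, to 6.63 for NUPR1. That range also holds the VEGFA value of 3.76, and a link between ATF4 and VEGFA was not tested.

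Downstream of the receptors, 48 genes of VEGF receptor signalling were tested, of which 5 rose and 3 fell. The adaptor SHC2 rose by 2.37, the phospholipase PLCG2 by 1.93 and the calcineurin inhibitor RCAN1 by 1.76, and the PI3-kinase subunit PIK3R1 fell by 2.60 on the log2 scale (edgeR adjusted p between 4.7e-15 and 7.1e-11). The others called, named after their values were seen, were PPP3CC (1.48) and MAPKAPK3 (1.02), which rose, and MAPK13 (−1.45) and NFATC2, which fell. MAPK13 had 17, 44 and 42 counts in Control and 8, 18 and 6 in rhCYGB. NFATC2 had 24, 42 and 32 counts in Control and 7, 4 and 10 in rhCYGB. MAPK13 and NFATC2 passed the filter only through their level in Control. With at least 10 counts in every library, and on both FPKM scales, 1 gene of the list was called lower. For the neuropilins, 1 of 10 tested partners fell and none rose, the integrin subunit ITGAV with a log2 fold change of −1.12, and 2 fell without Control 2 or without rhCYGB 2. By edgeR's adjusted p alone, and likewise at an unadjusted p under 0.05, 4 of these partners were higher and 4 lower, near the 39.0% higher and 38.6% lower among all genes at the adjusted p alone, and DESeq2 called none higher at 2-fold. Of 15 tested class 3 semaphorins and plexins 1 rose and 4 fell, with a median of −0.38. SEMA3D (−2.23), SEMA3G (−1.76) and SEMA3A (−1.53), repulsive ligands of neuropilin and plexin complexes, fell, and the plexin PLXNA3 rose by 1.67. The largest adjusted p of these 4 genes in edgeR's test was 0.00069, for SEMA3G. SEMA3G had 43, 45 and 53 counts in Control and 6, 18 and 12 in rhCYGB, and passed the filter only through its level in Control. SEMA3F (−1.21), the ligand of NRP2, was the other gene that fell and was named after its value was seen.

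Of the wider VEGF and PDGF family, 5 of 12 genes were tested, PDGFA rose by 1.02 (SE 0.088) and PDGFD fell by 1.78 on the log2 scale (SE 0.11). PDGFA was no longer called 2-fold higher when scaled by total counts, with at least 10 counts in every library, on both FPKM scales, without Control 3 or without rhCYGB 3. None of 13 angiopoietin, other angiopoietin-like and TIE genes passed the filter, and 10 of them had no counts, although 1 was tested and called higher without Control 3 or without rhCYGB 2. Among 11 tested genes of VEGF protein processing and matrix storage 1 rose and 5 fell, with a median of −0.86. Of these, the heparan sulfate proteoglycan HSPG2 (−1.35) and the syndecan SDC1 (−1.08), which can hold VEGF, and CCN2 (−1.04), which binds it, fell, and HPSE, the heparanase that cleaves heparan sulfate, rose by 1.21 (SE 0.33). MMP14 (−1.03) and GPC1 (3083, 3509 and 3197 counts in Control, 1507, 1334 and 1424 in rhCYGB), named after their values were seen, completed the 5 that fell, and leaving out rhCYGB 3 brought these to 2 and leaving out Control 1 to 3.

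Of 16 tested other secreted regulators of angiogenesis 5 rose and 6 fell, with a median of −0.89. CXCL8 rose by 4.01, FGF2 by 1.89 and EDN1 by 1.98, all of which promote vessel growth, and ANG, angiogenin, named after its value was seen, rose by 1.01. APLN (−4.16) and VASH2 (−3.55), which also promote vessel growth, and VASH1 (−1.52), which restrains it, fell. APLN had 91, 113 and 89 counts in Control and 4, 0 and 10 in rhCYGB. VASH2 had 110, 90 and 135 counts in Control and 10, 5 and 10 in rhCYGB. EDN1 had 20, 6 and 18 counts in Control and 49, 39 and 68 in rhCYGB. DLL4, outside the naming rule and chosen after its values were seen, had no counts in Control and 20, 24 and 31 in rhCYGB, at least 9.50-fold higher against a floor of 3 counts per library. Placing it at that bound left the list median at −0.89. EDN1, APLN, VASH2, DLL4 and THBS2, the last named after its value was seen, passed the filter only through the group where they were high. Their calls carry no weight.

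Around ANGPTL4, 13 genes of its control and of the lipases were tested, and 1 rose and 2 fell. PPARG, one of the receptors that induce ANGPTL4, rose by 2.36 (SE 0.089), while the endothelial lipase LIPG (−1.46) and SMAD3 (−1.30) fell, and LPL, the lipase it inhibits, had no counts. Of 11 tested PPAR targets none rose at 2-fold and 3 fell, PDK4 (−2.10), CPT2 (−1.96) and SLC25A20 (−1.51), all of fatty acid oxidation or its control. By edgeR's adjusted p alone, and likewise at an unadjusted p under 0.05, 2 PPAR targets were higher and 6 lower, beside 39.0% higher and 38.6% lower among all genes at the adjusted p alone, and DESeq2 also called none higher at 2-fold, while edgeR called 1 without rhCYGB 2.

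**Figure D5:**
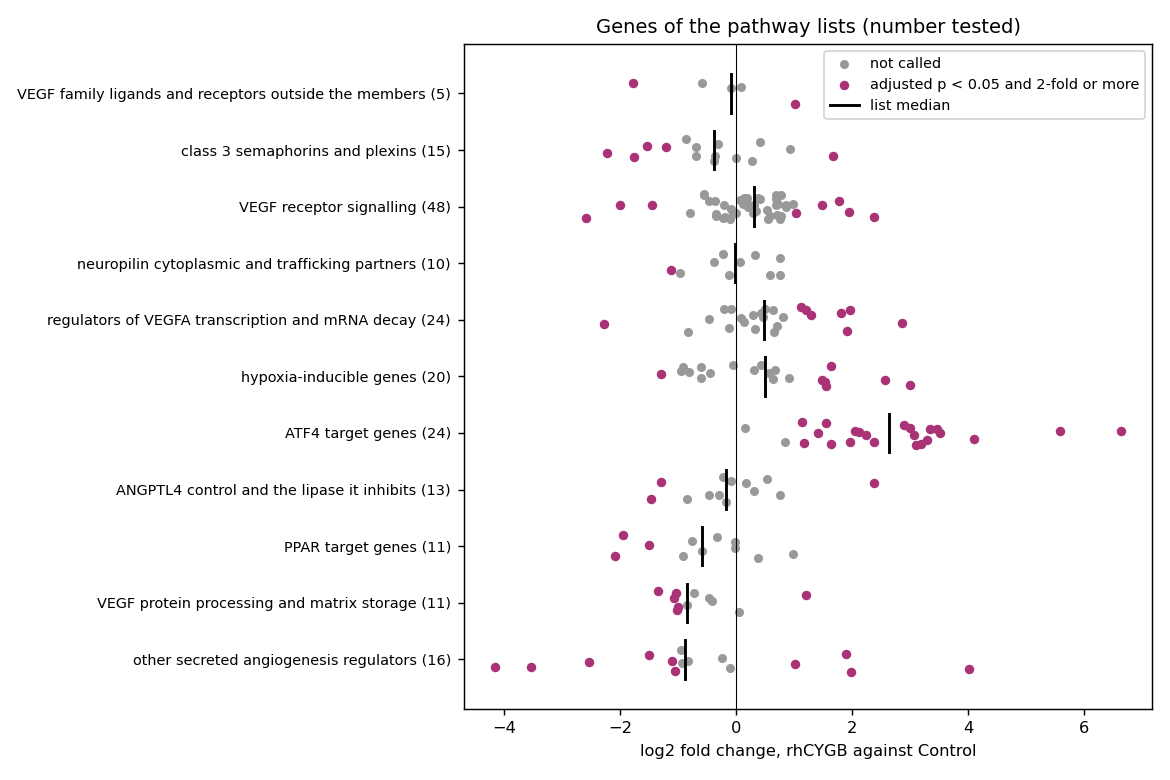
Log2 fold change (x axis) of each tested gene of 11 lists, with coloured points for genes called at an adjusted p under 0.05 and 2-fold or more, bars for list medians and the number tested in brackets. The ATF4 targets lie furthest to the right (median 2.63), and DLL4, which has no Control counts, is not drawn.

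The genes whose centred log2 profiles over the 6 libraries lay nearest to that of VEGFA, among 9342 genes with a mean of at least 10 CPM, were NDRG4, PPP1R15A, TMEFF1, DDIT4 and GAB2, with root mean square differences of 0.034 to 0.13. Nearest to ANGPTL4 were TACO1, ARHGAP27P1-BPTFP1-KPNA2P3, APAF1, CLN3 and PUS1, at 0.039 to 0.050. Over 2 groups of 3 libraries this likeness mostly reflects a similar difference between the groups, and the fitted log2 fold changes of the 5 genes nearest to VEGFA ran from 3.51 to 3.84.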

How the data were processed

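RNA-seq libraries of MIA PaCa-2 cells (3 Control, 3 rhCYGB) had been prepared with a stranded mRNA kit and sequenced as read pairs. Per the submitters' processing notes and the study's methods, reads were checked with FastQC 0.11.7, mapped with HISAT2 2.1.0 and assembled with StringTie 2.1.3b. The notes list a mouse build although the genes are human, and the build of the deposited coordinates is not named, so none of them is printed. The authors deposited whole-number read counts per gene and per transcript without normalization, and FPKM values, which scale to transcript length and total mapped fragments. Deposited TPM values (12 columns) were not used.

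Genes were filtered with filterByExpr, scaled by TMM and tested with edgeR 4.0.16 (glmQLFit and glmQLFTest) in R 4.3.3 on the 6 libraries without a block, with Benjamini-Hochberg adjustment. Genes were called at an adjusted p under 0.05 where the fold was at least 2. Of 35993 genes, 15205 had no counts and 6060 more were filtered, leaving 99.97% of counts. SE is the log2 fold change divided by the root of F. CPM used TMM-scaled sizes, and shares of transcripts used FPKM. Reads carry no molecular identifiers, so a floor covers counting error and nothing else. Chi-square over degrees of freedom between libraries of a group was 4.67 to 6.61, more than counting error alone gives, so none was a copy or resequencing of another. Nor does this chi-square tell separate cultures from technical replicates. The fit was also run on simulated counts in which few genes changed, so that run does not bear on the scaling of these data.

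RefSeq models were assigned to VEGFA forms with the GENCODE v29 RefSeq table and coding sequences. The members and lists were chosen with earlier results of these data known. All members are named, and for each list up to 3 called genes in each direction with the largest change and at least 1 CPM in the higher group. Alternatives were DESeq2 1.42.0 (size factors or Wald test), total counts, other filters, limma 3.58.1 on log2(FPKM + 1) and log2(FPKM + 0.1), a replicate block and leaving out each library.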

Additional observations from a re-analysis of the deposited data

How the results depend on the processing

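No member changed direction under any of the alternatives run. Under limma on log2(FPKM + 1) 805 genes were called higher and 1172 lower in place of 1833 and 2165, and 15 genes of the lists were called lower in place of 27. Of the members, 1 was then called higher and 0 lower in place of 4 and 2. This setting changes the scaling, the test and the pseudocount together, and which of them accounts for a lost call was not tested. With a pseudocount of 0.1, 1 member was called higher (VEGFA) and 1 lower (NRP1). Scaled by total counts 2 members were called higher (VEGFA and FLT1), and with at least 10 counts in every library 1 was called lower (NRP1), since FLT1 and NRP2 were not tested there. ANGPTL4 was called lower by adjusted p alone when scaled by total counts and on both FPKM scales. The log2 fold change of VEGFA ran from 3.51 to 3.81 over 14 alternatives, that of NRP1 from −2.82 to −0.61 and that of ANGPTL4 from −0.30 to −0.067. The difference in the share of VEGF121 ran from −7.24 to −1.93 percentage points when single libraries were left out, and that of VEGF189 from 1.10 to 3.72.

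The replicate numbers are shared between the groups, but same-numbered libraries did not deviate together over all genes tested (correlations of −0.048, 0.0072 and 0.0055). Whether they were cultured or prepared together is not given by the labels, and these correlations cannot show it. With the replicate block 1817 genes were called higher and 2161 lower, and 4 members were called higher and 2 lower. Depth limits FLT1, NRP2, PGF and the rare VEGFA forms, which rest on few counts in at least one group.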
